A study of Mus musculus with 6 samples.

Results

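The comparison described here set the DNA methylome of short-term haematopoietic stem cells (ST-HSC) carrying an Idh1 knock-in allele against that of ST-HSC from littermate controls. It used 2 of the 6 libraries of the study, the IDH1 KI ST-HSC library and the Control ST-HSC library, and the other 4 (long-term stem cells, LT-HSC, and multipotent progenitors, MPP, of the same genotypes) served only for context. Control mice were IDH1+/+ VavCre+ and knock-in mice (KI below) were IDH1+/lsl VavCre+, so both carried the Cre recombinase, and only KI carried the Idh1 allele behind a removable stop cassette. Vav drives Cre in blood-forming cells and, to some degree, in endothelium. All animals were male C57BL/6 mice aged 7 to 10 months, and the cells of 6 mice were pooled for each library. The labels define ST-HSC by the gate Lin- Sca+ Kit+ CD150+ CD48+, which other gating schemes assign to megakaryocyte-biased multipotent progenitors. Autosomal cytosine positions (chromosome, base and strand) with at least 10 reads in both libraries entered the comparison. There were 833862 such positions, and 671683 of them lay in the 38319 windows of 1 kb that held at least 5 and form the unit of most values below. With 1 pooled library a side there was no replicate. Every test below therefore compares the reads of 2 libraries, covers counting error only, and says nothing about the spread between mice.

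IDH1 makes 2-oxoglutarate, the co-substrate of a large family of dioxygenases. Among them are the TET enzymes, which oxidise methylated cytosine as a step towards its removal. Cancer-associated forms of IDH1 instead produce 2-hydroxyglutarate, which inhibits these enzymes. In blood stem cells most CpG-rich gene starts are free of methylation and most other CpGs are fully methylated, and TET activity matters most at the partly methylated sites between these states, such as enhancers and the edges of CpG islands. Enhanced reduced representation bisulfite sequencing (eRRBS) reads CpG-rich restriction fragments after a treatment that turns unmethylated cytosine into uracil, so the percent of reads that still show C is the methylation level. RNA was not measured, and the identity of the sorted cells could not be checked by expression.

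The sequences below are promoters whose CpGs differed between the libraries, chosen among the genes named by the rules given with the processing. Each runs 5′ to 3′ on the strand of the gene, from 250 bases before to 50 bases after the start site in RefSeq GRCm38.p6, the same build as mm10. The start sites used for Tbx1 and Runx1 lie inside the annotated extent of the gene. Capitals mark the CpGs that were read in both libraries, so they show which letters the values come from. The mean level over the capital CpGs was higher in KI at the first 6. It went from 29.0 to 75.7% at Tubb4a (chr17:57087551-57087850), from 37.3 to 72.8% at Tbx1 (chr16:18588850-18589149), from 46.9 to 86.5% at Pnliprp2 (chr19:58759473-58759772) and from 5% to 50.2% at Acot11 (chr4:106804958-106805257). Hoxa6 (chr6:52208623-52208922) went from 2.59 to 18.7% and Runx1 (chr16:92697280-92697579) from 3.49 to 12.6%. At Myo1h (chr5:114289003-114289302), shown as a promoter that was lower in KI, it went from 89.0 to 58.8%.
Tubb4a: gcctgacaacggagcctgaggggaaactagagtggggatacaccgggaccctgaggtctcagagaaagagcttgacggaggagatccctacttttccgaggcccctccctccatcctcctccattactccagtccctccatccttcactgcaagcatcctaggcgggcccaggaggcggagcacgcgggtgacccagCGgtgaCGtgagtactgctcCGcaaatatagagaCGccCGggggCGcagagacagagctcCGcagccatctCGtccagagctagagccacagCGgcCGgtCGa
Tbx1: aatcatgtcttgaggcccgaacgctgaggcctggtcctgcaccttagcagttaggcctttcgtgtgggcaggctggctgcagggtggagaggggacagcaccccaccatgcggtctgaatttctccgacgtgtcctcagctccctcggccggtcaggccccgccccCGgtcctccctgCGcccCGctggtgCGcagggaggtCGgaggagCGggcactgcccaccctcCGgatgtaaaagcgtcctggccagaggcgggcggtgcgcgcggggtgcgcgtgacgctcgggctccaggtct
Pnliprp2: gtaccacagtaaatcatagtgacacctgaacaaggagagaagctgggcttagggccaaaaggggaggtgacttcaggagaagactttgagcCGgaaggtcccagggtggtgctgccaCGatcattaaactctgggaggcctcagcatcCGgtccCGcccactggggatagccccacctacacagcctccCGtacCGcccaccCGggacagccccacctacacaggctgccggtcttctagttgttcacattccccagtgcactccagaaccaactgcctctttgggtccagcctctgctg
Acot11: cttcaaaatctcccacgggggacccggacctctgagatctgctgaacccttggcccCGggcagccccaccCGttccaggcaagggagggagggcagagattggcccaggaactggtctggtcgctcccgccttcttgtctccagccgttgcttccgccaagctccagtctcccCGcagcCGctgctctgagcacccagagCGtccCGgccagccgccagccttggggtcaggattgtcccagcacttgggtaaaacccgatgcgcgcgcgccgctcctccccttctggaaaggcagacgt
Hoxa6: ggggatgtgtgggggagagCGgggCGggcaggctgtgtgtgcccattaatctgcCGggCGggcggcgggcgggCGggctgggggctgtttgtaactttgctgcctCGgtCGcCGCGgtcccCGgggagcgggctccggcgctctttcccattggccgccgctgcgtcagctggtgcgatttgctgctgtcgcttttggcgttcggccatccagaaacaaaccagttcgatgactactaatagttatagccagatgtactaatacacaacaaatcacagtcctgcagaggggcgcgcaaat
Runx1: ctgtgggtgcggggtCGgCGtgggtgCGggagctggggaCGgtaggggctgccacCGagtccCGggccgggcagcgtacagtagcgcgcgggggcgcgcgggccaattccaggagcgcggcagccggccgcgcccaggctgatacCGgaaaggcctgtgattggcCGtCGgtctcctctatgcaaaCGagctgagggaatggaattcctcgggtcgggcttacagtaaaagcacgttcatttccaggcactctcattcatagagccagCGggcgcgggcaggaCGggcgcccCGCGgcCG
Myo1h: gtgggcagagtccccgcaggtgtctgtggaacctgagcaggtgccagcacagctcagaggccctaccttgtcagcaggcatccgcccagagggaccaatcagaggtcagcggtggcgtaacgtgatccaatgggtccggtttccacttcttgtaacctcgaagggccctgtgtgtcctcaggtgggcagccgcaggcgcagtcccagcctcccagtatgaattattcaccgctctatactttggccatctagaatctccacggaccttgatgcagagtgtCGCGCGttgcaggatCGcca

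The Control ST-HSC library held 936607 positions with 39461301 reads in all (median 30 reads a position), and the KI library 1040407 positions with 38284759 reads (median 27). The deposited names put the 2 libraries on different lanes, and lane and genotype therefore cannot be told apart. Strand agreement gave a second view of depth. Over 6695 CpGs at 20 to 80% with reads on both strands, the strands differed as much as 5.57 independent molecules a position would in Control and 6.78 in KI, fewer than the median read depth. A read that spans several CpGs is counted at each of them. Both facts make the read tests too generous. The calls were therefore also made with each read counted once on each strand, a choice made after seeing the data. That count deals only with reads that span several CpGs. It keeps the full read depth and not the fewer molecules, so its calls can still be too generous.

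Methylation was higher in KI ST-HSC than in Control ST-HSC on average, and by far the most at partly methylated windows. The mean window level was 40.6% in Control and 42.4% in KI, a difference of 1.77 percentage points ± 5.83 (SD over 38319 windows, which is the spread between sites and not between mice). The median difference was 0.779 points, and 63.2% of windows lay above 0. A window was called when the two-sided Fisher exact test on its summed reads gave an adjusted p under 0.01 (Benjamini-Hochberg over all windows) and the mean levels differed by at least 10 points. By that rule 1918 windows (5.01%) were higher and 224 (0.585%) were lower in KI. With each read counted once, 206 windows (0.538%) were called higher and 8 (0.0209%) lower, all of them among the windows called before. By size alone, with no test on reads, KI exceeded Control by 10 points or more in 2626 windows (6.85%) and fell short of it by as much in 403 (1.05%). Larger differences were also mostly rises: 717 windows were at least 20 points higher against 49 lower, 180 at least 30 points higher against 12, and 44 at least 40 points higher against 5. Weighted by reads, the level over all shared positions was 28.77% in Control and 28.75% in KI, so the excess was seen in the mean over positions (30.8 and 32.2%) and over windows but not in the mean over reads.

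**Figure D1:**
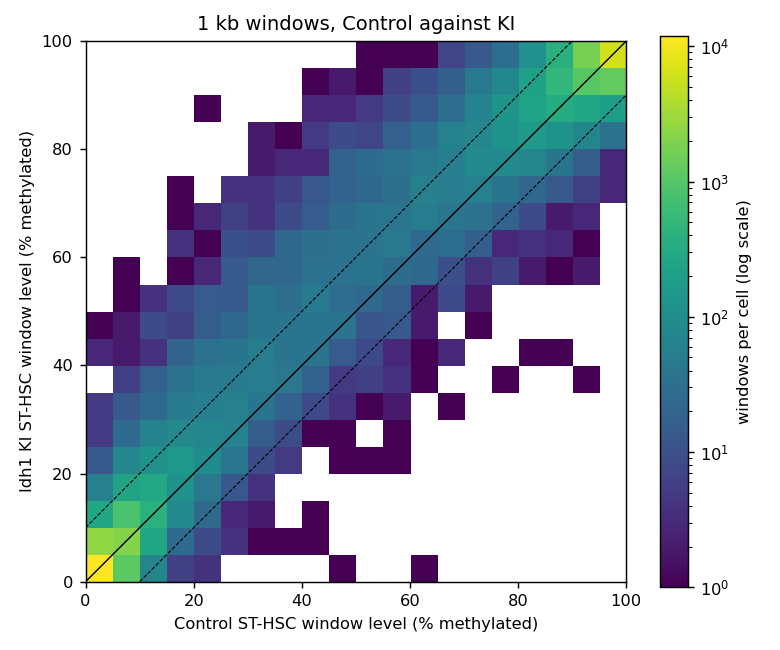
Window level in Control ST-HSC (x axis, % methylated) against KI ST-HSC (y axis, % methylated) for 38319 windows of 1 kb, with the number of windows per cell as colour on a log scale. The solid line marks equal levels and the dashed lines a difference of 10 points; 2626 windows lie above the upper and 403 below the lower dashed line.

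Windows were sorted by their mean level over the 4 LT-HSC and MPP libraries, which play no role in the ST-HSC difference. The 2602 windows at 20 to 80% there stood at 44.9% in Control ST-HSC and 53.5% in KI ST-HSC. Their difference was 8.64 points ± 11.7 (SD over windows), with a median of 7.78, and 78.2% of them lay above 0. Of these windows 844 (32.4%) were called higher and 55 (2.11%) lower. The 19207 windows under 20% differed by 1.05 points ± 3.15, with 301 called higher and 23 lower. The 8723 windows over 80% differed by 1.02 points ± 4.91, with 294 called higher and 65 lower. Within the partly methylated range, windows at 40 to 60% differed by 11.4 points and 40.9% of them were called higher, against 8.36 points at 20 to 40% and 6.92 points at 60 to 80%. At the extremes the libraries were close, with 0.241 points over the 2595 windows under 2% and 0.344 points over the 2904 windows at 98% or more. Of all windows, 9.95% lay at 20 to 80% in Control ST-HSC and 10.1% in KI. Windows over 80% made up 34.9% in Control and 36.4% in KI, and windows under 20% made up 55.2 and 53.5%.

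Partly methylated windows were higher in KI at each kind of location. At gene starts (1000 bases before to 500 after a RefSeq start) 510 such windows differed by 8.17 points ± 11.8, in gene bodies 1391 windows by 9.54 points ± 11.7, and between genes 629 windows by 6.99 points ± 11.4. Their shares called higher were 30.8, 36.0 and 26.2%. Over windows of all levels, gene starts differed less (1.20 points, 2.35% called higher) than gene bodies (2.17 points, 6.63%) and intergenic windows (2.03 points, 6.84%), and gene starts were also mostly unmethylated, at 9.38% in Control. By distance to the nearest start, partly methylated windows within 500 bases differed by 7.59 points, those at 2000 to 5000 bases by 9.64 and those beyond 20000 bases by 7.52. Windows of chromosome 18 have no start in the table and are not in these classes. All 19 autosomes had a mean difference above 0, from 1.21 points on chromosome 13 to 2.09 on chromosome 11, and on each of them the windows called higher outnumbered those called lower. Split into 3 equal groups by reads a position, from fewest to most, windows differed by 1.84, 1.69 and 1.78 points.

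**Figure D2:**
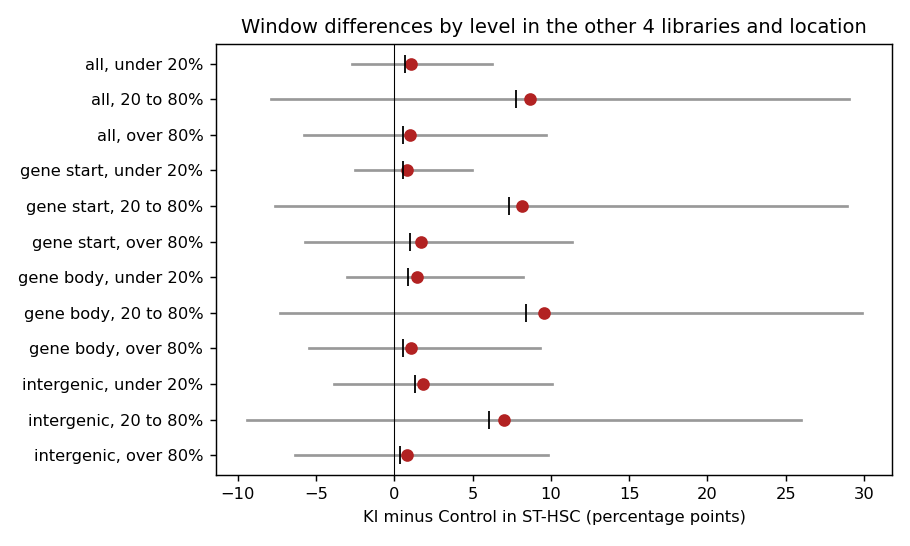
KI minus Control in ST-HSC (x axis, percentage points) for windows grouped by their level in the other 4 libraries and by location. Dots are means, black ticks medians and grey lines run from the 5th to the 95th percentile of windows; the partly methylated classes sit at 6.99 to 9.54 points on average and all other classes at 0.812 to 1.81.

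The 2 strands of a CpG are read from separate molecules and gave a measure of the error inside each library. In 12154 windows with at least 3 CpGs read on both strands in both libraries, KI was at least 10 points higher in 493 windows (4.06%) and lower in 136 (1.12%) on the plus strand. On the minus strand KI was higher in 492 windows (4.05%) and lower in 119 (0.979%). Inside the Control library the plus strand was at least 10 points higher than the minus strand in 297 windows and lower in 307, and inside the KI library in 246 and 215. Differences of this size were thus about as frequent between the strands of one library as between the libraries. Inside a library they went about equally in both directions. With strand names arbitrary, that balance was fixed in advance, and it is no reference for the imbalance between libraries. A shift of a whole library would move both strands alike, so this comparison cannot show it. With both strands joined, 373 windows were higher and 46 lower in KI. A rise of at least 10 points stood on both strands in 204 windows, a fall on both in 10, and opposite differences of that size in 21. The differences on the plus and the minus strand had r = 0.37 across these windows, a description only, since all of them share the same libraries.

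**Figure D3:**
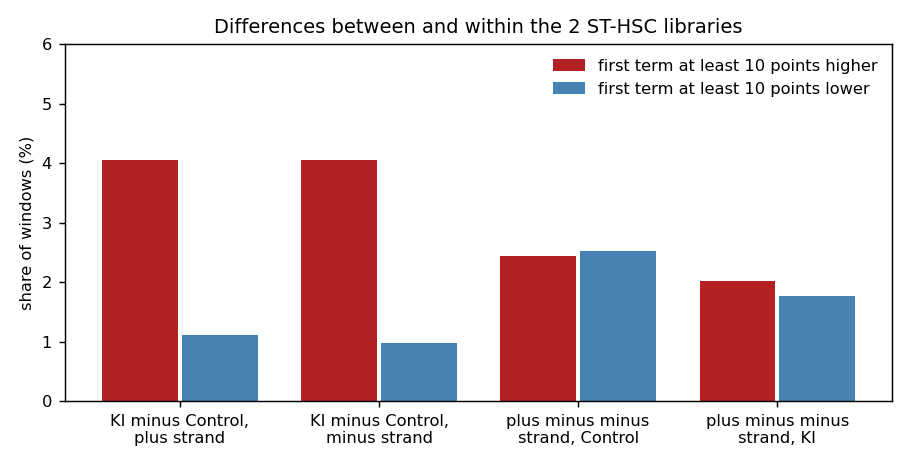
Share of 12154 windows (y axis, %) that differed by at least 10 points between the ST-HSC libraries on each strand (left pairs) and between the strands of each library (right pairs). Red bars are windows where the first term was higher, blue bars where it was lower. The bars are unequal between libraries (4.06 against 1.12% on the plus strand). Within a library, where strand names are arbitrary, they are near equal (2.44 against 2.53% in Control).

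At single positions, 4621 of 833862 (0.554%) were called higher and 942 (0.113%) lower in KI, at an adjusted p under 0.01 (Fisher exact test) and at least 25 points. Of 1260 CpGs called on at least 1 of 2 strands read, 81 were called higher on both, 5 lower on both and 1 in opposite directions. Calls of windows mostly involved most of their positions. In the median such window 83.3% of positions were higher in KI, and in 580 windows (30.2%) every position was. Their median level was 40.1% in Control and 63.4% in KI. The windows called lower had higher Control levels, with medians of 89.7% in Control and 70.5% in KI, and in 63 of them (28.1%) every position was lower. The rule for a call bounds these levels. A window with a Control level below the smallest difference of a call cannot be called lower. One equally near full methylation cannot be called higher. The contrast in Control levels was not separated from this limit, which also bears on the counts of calls in each direction.

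Of the 20 windows named by size, the 12 with the largest rises lay in gene bodies (7), between genes (3) and at gene starts (2). In the body of Spred2, which restrains signalling from Ras to MAP kinases, all 6 positions of chr11:19965001-19966000 were higher in KI, with a lowest value of 54.2% in KI and a highest of 39.3% in Control. The pooled difference there was 57.8 points (95% Newcombe interval 47.1 to 66.2, on 151 Control and 122 KI reads). Reads here are summed over positions, so a read counts at each CpG it spans. This interval and those given below are too narrow to that extent, and they were not recomputed with each read counted once. In the body of Dusp3, a phosphatase that acts on MAP kinases, the 7 positions of chr11:101982001-101983000 averaged 25.6% in Control and 72.3% in KI (pooled difference 47.4 points, 40.3 to 53.6). In Epha2, an ephrin receptor kinase, the 6 positions of chr4:141312001-141313000 averaged 15.4 and 63.0% (42.2 points, 34.6 to 49.2). In Nab2, a co-repressor of EGR transcription factors, those of chr10:127661001-127662000 averaged 19.8 and 66.1% on 466 and 464 reads (46.6 points, 40.8 to 52.0). At these 4 genes every KI position lay above every Control position.

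In Helz, an RNA helicase gene, chr11:107676001-107677000 went from 43.2 to 89.3%, and in Ptov1 chr7:44867001-44868000 went from 45.5 to 91.9%. A window in the Hoxa cluster, chr6:52203001-52204000, lies in Hoxa5, Hoxa3 and the antisense gene Hoxaas3 and went from 35.0 to 83.2%, all of it read on the plus strand. Intergenic windows rose as much. The one 49417 bases from H2al2a went from 17.7 to 71.5% over 8 positions, the one 43560 bases from Dennd3 from 43.1 to 91.4%, and the one 93786 bases from Gm40211 from 21.3 to 69.3%. The windows at the starts of Gm52698 and Gm32822, both predicted genes, went from 34.2 to 84.2% and from 8.07 to 55.8%. With each read counted once, 10 of the 12 rises were still called; the windows at Hoxa5 and near Gm40211 were not.

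The 8 largest falls had 50 to 235 Control reads apiece, with the exception of Gm51701. At this lncRNA gene, chr9:123924001-123925000 stood at 62.5% in Control and 1.99% in KI over 17 positions, each of them lower, on 2920 and 557 reads (two-sided Fisher exact test, adjusted p = 2.85e-176). Levels there were also far apart in LT-HSC (64.7 and 1.57%) and in MPP (73.4 and 2.07%). In Adam11, of the ADAM metalloprotease family, chr11:102777001-102778000 went from 80.6 to 40.8% over 7 positions on both strands. These were the 2 falls still called with each read counted once. The other 6 were at the start of Oxct2a, a ketone body enzyme of the testis (chr4:123323001-123324000, 90 to 36.5%), and in the bodies of Gnas, the imprinted gene of a G protein alpha subunit (chr2:174300001-174301000, 85.2 to 43.3%), Ankrd13a (chr5:114801001-114802000, 77.5 to 36.2%), LOC115486519 (chr7:42750001-42751000, 90 to 56.2%), the sulphotransferase gene Chst13 (chr6:90309001-90310000, 92.0 to 59.1%) and Igsf21 (chr4:140223001-140224000, 65.0 to 32.6%). The 5 positions of Oxct2a lie from 64 to 100 bases after its start on the minus strand, and each had 10 Control reads at 90%; whether these were the same 10 reads was not tested.

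**Figure D4:**
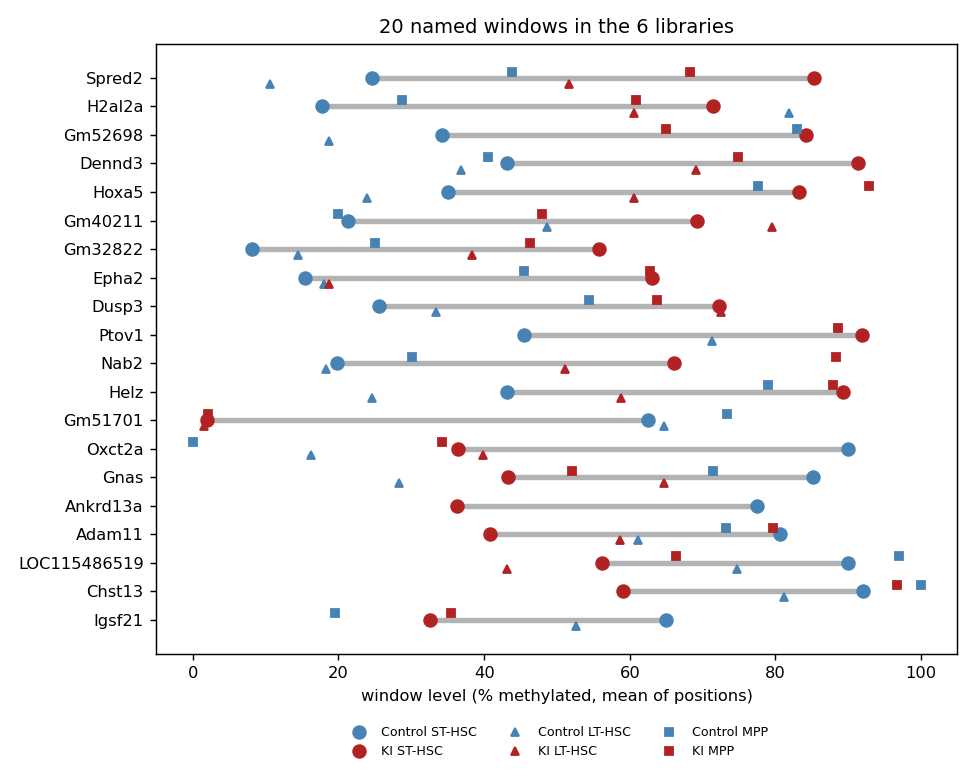
Level (x axis, % methylated) of the 20 named windows in the 6 libraries, Control in blue and KI in red, with ST-HSC as large circles joined by a bar, LT-HSC as triangles and MPP as squares. Points are left out where a library had fewer than 3 positions. The 12 upper windows have the KI ST-HSC circle on the right and the 8 lower ones on the left; Spred2 runs from 24.6 to 85.2% and Gm51701 from 62.5 to 1.99%.

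At gene starts, 203 of 11170 (1.82%) were called higher and 22 (0.197%) lower in KI, and with each read counted once 20 and 2 were. The mean difference over starts was 1.04 points with a median of 0.569, and the 338 starts at 20 to 80% in the other libraries differed by 7.48 points ± 11.6 (SD over starts), with 98 called higher and 8 lower. By size alone KI exceeded Control by 10 points or more at 266 starts (2.38%) and fell short by as much at 32 (0.286%). At Tubb4a, a beta-tubulin of the nervous system, all 24 positions from 52 bases before to 114 after the start were higher in KI, with medians of 25.7% in Control and 77.5% in KI (two-sided Fisher exact test, adjusted p = 5.35e-49). The capital CpGs printed for Tubb4a above are part of this block. At Tbx1, a T-box factor of pharyngeal development, 12 of 12 positions were higher, with 11 of them from 84 to 21 bases before the start. Levels at Tbx1 were 34.2% in Control and 67.9% in KI, and the same direction stood in LT-HSC (35.1 and 57.4%) and MPP (32.2 and 61.4%).

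At Pnliprp2, a pancreatic lipase relative, the 8 positions averaged 46.9 and 86.5%. At Acot11, an acyl-CoA thioesterase, the 6 positions averaged 5% and 50.2%. There the 4 plus-strand positions carried the difference, each at 0% in Control and at 60 to 72% in KI on 25 reads, while the 2 minus-strand positions stood at 15% in Control and 16.7% in KI, and with each read counted once Acot11 was not called. Dctn1, a subunit of the dynein partner dynactin (chr6:83184946-83186445), went from 20.5 to 56.4% over 12 positions, all higher. The Dctn1 start used lies inside the gene, which begins at chr6:83165909. Chad, a cartilage matrix protein (chr11:94564047-94565546), went from 19.12 to 54.3% and Wbp1l (chr19:46622401-46623900) from 53.4 to 88.9%. The Wbp1l start used is also internal, in a gene that begins at chr19:46599106. The predicted genes Gm32822, Gm52698 and Gm35768 made up the rest, at 57.6, 50.0 and 47.8 points. Among these 10 starts, 7 were still called with each read counted once (not Gm52698, Acot11 and Wbp1l).

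The 6 starts with the largest falls were those of Gm51701 (chr9:123924148-123925647, 57.4 to 2.62% over 25 positions), Oxct2a, Dcdc2c (chr12:28551900-28553399, 92.5 to 63.7%), Asb4 (chr6:5382386-5383885, 34.6 to 6.07%), Myo1h (86.3 to 57.8%) and Rab10os (chr12:3234791-3236290, 40.7 to 13.1%). Gm51701 and Asb4 alone were still called with each read counted once. The fall at Rab10os was carried by the plus strand, since on the minus strand alone the difference was -4.50 points. At Asb4, an imprinted gene, LT-HSC showed the same direction (43.9 and 3.76%), as did MPP (20.1 and 10.5%).

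**Figure D5:**
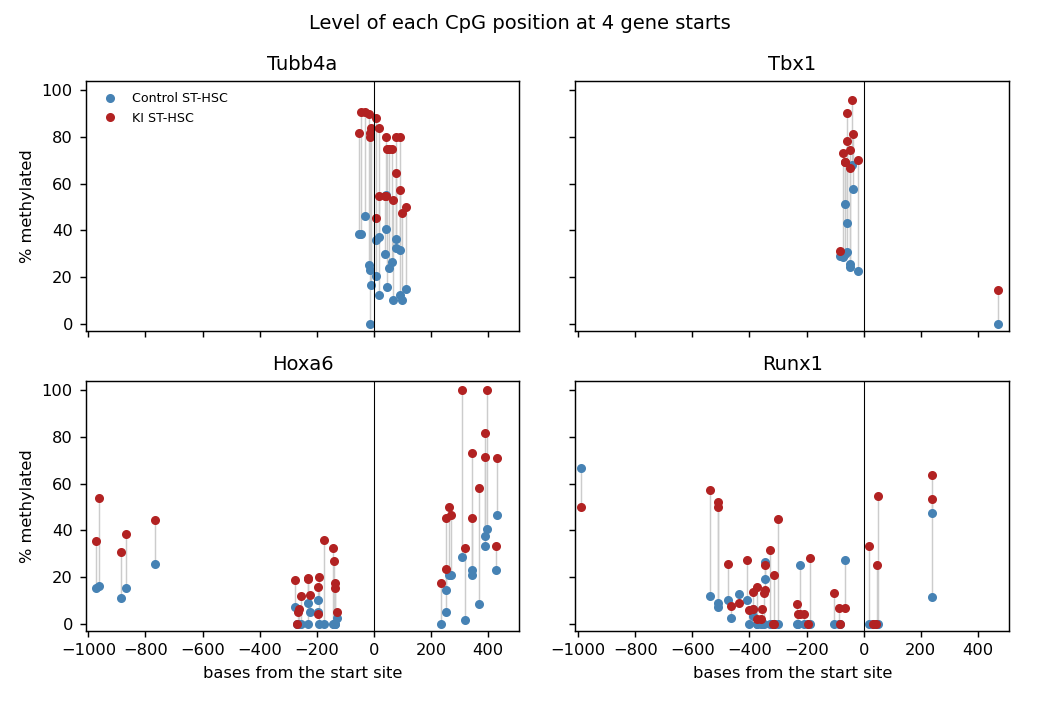
Level of each CpG position (y axis, % methylated) against its distance from the start site (x axis, bases) at Tubb4a, Tbx1, Hoxa6 and Runx1, with Control in blue, KI in red and a line joining the same position. All 24 positions of Tubb4a and all 12 of Tbx1 are higher in KI, as are 35 of 37 at Hoxa6 and 29 of 40 at Runx1.

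Genes of blood formation held 2 calls at their starts. Of 16 measured regulators of stem cells, 1 was called higher and 0 lower, against 1.82% higher and 0.197% lower over all starts, with a median difference of 0.851 points against 0.569 over all starts. The start called was that of Runx1, a transcription factor required to form and maintain blood stem cells. It is a start inside the gene, which begins at chr16:92826074 on the minus strand. Its 40 positions, from 992 bases before to 241 after the start in chr16:92696830-92698329, averaged 7.42% in Control and 19.7% in KI, with 29 positions higher and 5 lower (pooled difference 10.7 points, 95% Newcombe interval 8.07 to 13.4). In LT-HSC the same start stood at 3.51 and 7.89% and in MPP at 5.97 and 10.5%. On the plus strand alone the difference at Runx1 was 8.68 points and not called, nor was it called with each read counted once.

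The stem cell genes Gata2 (3.42 and 3.58%), Tal1 (1.86 and 2.01%), Mecom (3.66 and 3.90%) and Meis1 (1.71 and 3.25%) stayed nearly unmethylated in both. No start was called among 6 myeloid genes (median 1.26 points), 15 lymphoid genes (median -0.263 points) or 6 endothelial and stromal genes (median 2.20 points). Over all starts, 1.82% were called higher and 0.197% lower. Of 5 measured red cell and platelet lineage genes, 1 was called: Rhd, which encodes a Rh blood group protein, (chr4:134863536-134865035) went from 77.2 to 88.5% over 8 positions, of which 5 were higher and 3 lower. The call at Rhd was lost with each read counted once, and on the minus strand alone the difference was -4.09 points. These levels describe the sorted cells only as far as methylation at a start can.

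The enzymes around IDH1 mostly had low methylation at their starts in both libraries. None of 16 genes of the IDH and methylation machinery was called, nor any of 24 other 2-oxoglutarate dioxygenases, where 1.82% of all starts were called higher and 0.197% lower. The highest levels among those that differed by reads were at Uhrf2, a partner of DNA methylation (8.17 and 11.6%), and at the histone and ribosome oxygenase Riox2 (4.53 and 11.5%), both under the 10 points of a call. Idh1 itself stood at 1.64% in Control and 2.18% in KI over 22 positions that its start shares with Pikfyve, and Idh2, its mitochondrial relative, at 2.07 and 2.39% over 42. Tet1 stood at 4.82 and 2.63%, Tet2 at 2.75 and 2.67% and Tet3 at 3.22 and 5.77%. The Tet3 reads differed by the two-sided Fisher exact test (adjusted p = 3.35e-06), but at 2.56 points the size stayed under the 10 points of a call. Among the DNA methyltransferases, the maintenance enzyme Dnmt1 stood at 3.02 and 4.10%, and the de novo enzymes Dnmt3a and Dnmt3b at 2.59 and 2.03% and at 1.05 and 1.87%. Atm, which signals DNA breaks, stood at 2.36 and 2.20%. None of 16 DNA damage genes, 18 tumour suppressor and Wnt antagonist genes and 18 targets of hypoxia signalling was called, where the share over all starts was 1.82% higher and 0.197% lower. Their medians were 0.471, 0.292 and 0.258 points.

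The Hox genes, which set position along the body axis and are also active in blood stem cells, held the most starts called higher of any list. Of 16 measured starts, 3 were called higher and 0 lower, against 1.82% higher and 0.197% lower over all starts, and the median difference was 2.65 points. Hoxa6 went from 12.1 to 35.6% over 37 positions, 35 of them higher (two-sided Fisher exact test, adjusted p = 4.51e-47). In MPP the level at Hoxa6 was 22.9% in Control and 37.4% in KI, and in LT-HSC 13.1 and 19.6%. Hoxa2 (chr6:52164332-52165831) went from 4.72 to 17.5%, with 19 of 20 positions higher, and Hoxa5 (chr6:52204088-52205587) from 60.6 to 71.7%, with 26 of 35 higher. The Hoxa5 start was less methylated in LT-HSC, at 17.8% in Control over 35 positions and 24.9% in KI over 17, with a difference of 4.68 points over the positions read in both. Hoxb1 stood at 14.3 and 37.7%, and its reads did not pass the test. With each read counted once, none of the 3 calls was kept, and the Hoxa5 call was also lost at a minimum of 20 reads.

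Among 42 measured homeobox and other developmental regulators, 1 start was called higher and 0 lower, against 1.82% higher and 0.197% lower over all starts, with a median of 1.15 points. It was Nkx2-5, a cardiac homeobox gene, which (chr17:26841066-26842565) went from 9.25 to 20.1% over 12 positions, of which 7 were higher and 3 lower. On the minus strand alone Nkx2-5 differed by 5.89 points and was not called, nor was it called with each read counted once or after thinning to 10 reads.

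Imprinted genes, whose 2 parental copies are unequally methylated, differed in both directions. Of 22 measured starts, 1 was called higher and 3 lower, against 1.82% higher and 0.197% lower over all starts, and Peg3 and Usp29, paternally expressed neighbours that share their 8 positions, count as 2 of the 3. That shared start (chr7:6729920-6731419 for Peg3) went from 47.0% in Control to 21.4% in KI, with all 8 positions lower, while in LT-HSC it stood at 56.9 and 61.8% and in MPP at 54.6 and 50.0%. Asb4 was the other fall. Zrsr1, which lies within Commd1 and is expressed from the paternal copy, (chr11:22971005-22972504) went from 29.9 to 49.0%, with 16 of 18 positions higher. On the plus strand alone Zrsr1 was not called. Among imprinted starts not called, Nap1l5 stood at 40.5% in Control and 54.3% in KI and Mkrn3 at 25.4 and 37.6%, both past 10 points but not past the read test. Magel2 (23.6 and 30.1%), Snrpn (38.6 and 45.3%), Plagl1 (47.0 and 44.3%), Igf2r (40.8 and 38.5%) and Nnat (43.2 and 41.8%) differed by less. The calls at Peg3 and Zrsr1 were lost with each read counted once.

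Germline genes are silenced by promoter methylation in blood, and their 18 measured starts had a median of 92.5% in Control and 95.4% in KI. Of these 18 starts, 1 was called higher and 0 lower, against 1.82% higher and 0.197% lower over all starts. The start called was that of Tdrd1, a Tudor protein of the piRNA pathway (chr19:56825209-56826708). It went from 59.3 to 83.9%, with 18 of 21 positions higher. The difference at Tdrd1 was 12.35 points with at least 20 reads a position, 14.91 on the plus strand and 37.41 on the minus strand. Of 26 inhibitors of Ras and MAP kinase signalling, 1 start was called higher and 0 lower, against 1.82% higher and 0.197% lower over all starts. Spred3 (chr7:29168148-29169647) went from 34.1 to 56.3% over 5 positions, and its relative Spred1 stood at 1.66 and 2.48%. The large rise in Spred2 described above lay in the gene body, so it is not counted among these starts. Neither Tdrd1 nor Spred3 was called with each read counted once.

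Windows called in the same direction seldom lay next to one another. Whether the neighbouring window held enough positions to be tested was not counted, so this does not show that the differences were isolated. The 1918 windows called higher formed 1870 runs, of which 46 held at least 2 adjacent windows and 2 held 3, and the 224 called lower formed 222 runs. The following runs were picked after their values were seen. The longest were 3 windows at Mn1, a transcriptional co-regulator altered in myeloid leukaemia, and at Nr4a2, an orphan nuclear receptor. At Mn1, chr5:111418001-111421000, 141 positions went from 36.2% in Control to 56.8% in KI on 6049 and 5125 reads. The same stretch at Mn1 went from 25.02 to 49.1% in LT-HSC and from 47.5 to 70.1% in MPP. At Nr4a2, chr2:57110001-57113000, 64 positions went from 17.0 to 36.9%. Among the runs of 2 windows were Runx1 (chr16:92697001-92699000, 54 positions, 7.04 to 20.7%), Fam171a2 (chr11:102437001-102439000, 30.2 to 52.9%), the Hoxa3 and Hoxa5 stretch (chr6:52203001-52205000, 48.7 to 76.6%) and Rfx8, of the RFX factor family (chr1:39720001-39722000, 17.4 to 41.5%). Nfix, a nuclear factor I gene expressed in blood stem cells (chr8:84771001-84773000), went from 21.7 to 50.6%, the AP-1 subunit gene Fosb (chr7:19303001-19305000) from 6.62 to 30.1% and the growth factor receptor gene Fgfr3 (chr5:33723001-33725000) from 26.8 to 40.1%. The 2 lower runs lay at Gm51701 and at Hoxb3 (chr11:96332001-96334000, 97.97 to 86.6%).

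The windows called higher in ST-HSC were also higher in the other cell types of KI mice more often than windows at large, with no test of the difference. Of 1510 that were measured in LT-HSC, 497 (32.9%) were at least 10 points higher in KI and 6.69% lower, against 4.93% higher and 2.66% lower over all windows measured there. Of 1743 measured in MPP, 731 (41.9%) were higher and 6.77% lower, against 7.72 and 2.36%. In 245 of 1411 windows measured in both (17.4%), KI was at least 10 points higher in LT-HSC and MPP alike, against 1.59% of all windows, and in 485 (34.4%) it was within 10 points in both. Among partly methylated windows, where differences of this size are common in either cell type, the shares were 42.3% against 29.3% in LT-HSC and 54.0% against 38.6% in MPP. Of the windows called lower, 24 of 148 (16.2%) were at least 10 points lower in LT-HSC and 21 of 199 (10.6%) in MPP, where 29 (14.6%) were higher. Among partly methylated windows, those called lower were lower by that much in 33.3% of cases against 12.4% of all in LT-HSC, and in 25.5% against 11.03% in MPP. The LT-HSC and MPP contrasts share no library with the ST-HSC contrast, but the labels do not say whether the same mice gave all 3 cell types.

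The windows that change methylation from LT-HSC to MPP in Control mice, a step that ST-HSC stand between, had larger mean differences in ST-HSC than the rest, a description with no test. The 2273 windows that were at least 10 points higher in Control MPP than in Control LT-HSC were 6.36 points ± 10.5 (SD over windows) higher in KI ST-HSC than in Control ST-HSC. The 1863 windows that were at least 10 points lower in Control MPP were 4.61 points ± 9.83 higher too, and the 30968 flat windows 1.22 points ± 4.46. Windows that gain or lose methylation are often partly methylated. Within the 20 to 80% range the differences were closer, at 10.4 points for gain, 8.74 for loss and 7.31 for flat windows. The mean KI difference was above 0 in each class.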

How the data were processed

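Per the labels' protocols, eRRBS libraries were made from 10 ng of DNA with fragments of 150 to 400 bp and sequenced on a HiSeq2000. The submitters' processing notes name Bismark 0.10.0, SAMtools 1.0, methylKit 0.9.1 and mm10, without settings, and the labels give neither a conversion rate nor whether duplicate reads were removed. Per the file headers, the authors deposited a read count (coverage) and the percent of C and of T for each position. Methylated reads were coverage times percent C; both strands were kept apart.

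A window or start level is the unweighted mean of its position levels. Gene starts reach from 1000 bases before to 500 after the RefSeq start with the most shared positions (25748 genes had a start, 11170 held at least 5 positions). Where a gene has several starts, the one used can lie inside the gene, as at Dctn1, Wbp1l and Runx1. Fisher exact tests (scipy 1.17.1, numba 0.67.0) on summed reads were adjusted over all units of a kind. The code was run on simulated data with independent reads at each position. That run held no reads spanning several CpGs and no duplicates, so it cannot show how the calls fare with them. Named were the 12 largest called rises and 8 largest falls among windows, 10 and 6 among starts, up to 4 called starts a list, and 9 fixed genes. Members, lists and rules were chosen with earlier results of these data known. Alternatives covered depth, strand, thinning to 10 reads, grid, thresholds and, added after seeing the data, reads counted once: mean reads a position on each strand, summed over strands, which undercounts where fragments do not overlap.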

Additional observations from a re-analysis of the deposited data

Results flagged for a closer look

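At 7 named windows or starts the KI minus Control difference in ST-HSC stood against a difference of at least 10 points of the opposite sign in LT-HSC or MPP. These differences between cell types were not tested, since each is between single libraries. The intergenic window near H2al2a stood at 53.74 points in ST-HSC, -11.71 in LT-HSC, where 4 Control positions were read, and 32.11 in MPP. The Gm52698 window stood at 50.03 points in ST-HSC and -18.07 in MPP. The Oxct2a window stood at -53.55 points in ST-HSC, 23.68 in LT-HSC and 27.28 in MPP. The Gnas window stood at -41.83 points in ST-HSC, 36.3 in LT-HSC and -19.29 in MPP. The Igsf21 window stood at -32.46 points in ST-HSC and 16.05 in MPP. The start of Tdrd1 stood at 24.56 points in ST-HSC, -1.847 in LT-HSC and -12.46 in MPP. That of Zrsr1 stood at 19.07 points in ST-HSC, -19.04 in LT-HSC and 23.84 in MPP.

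The sex chromosomes lie outside the comparison and gave differences of the same sign and size. Over 617 windows of the X chromosome the mean went from 29.5 to 31.0%, a difference of 1.464 points ± 5.73 (SD over windows), with 22 windows called higher and 5 lower. Over 18 windows of the Y chromosome it went from 87.5 to 89.1%, a difference of 1.572 points ± 4.15, with none called by the read test.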

How the results depend on the processing

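The mean window difference kept its sign under each alternative run, at 1.687 points with at least 20 reads, 1.308 with at least 10 positions, 1.702 on the plus and 1.724 on the minus strand. The mean of partly methylated windows was 8.985 with at least 20 reads, 8.823 on the plus strand and 8.797 on a shifted grid. That of windows gaining methylation from LT-HSC to MPP was 6.822 with at least 20 reads, 7.122 with at least 10 positions, 5.614 on the plus and 5.478 on the minus strand.

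Counts of calls moved far more. Windows higher numbered 572 with at least 10 positions, 412 after thinning to 10 reads, 681 at 20 points and 206 with each read counted once. Windows lower numbered 130 with at least 20 reads, 39 with at least 10 positions, 22 after thinning, 44 at 20 points, 8 with each read counted once and 403 by difference alone. Gene starts higher numbered 103, 53, 58 and 20 with at least 10 positions, after thinning, at 20 points and with each read counted once, and gene starts lower 8, 4, 8 and 2 in the same order and 37 on the plus strand. Single positions higher numbered 2295 and 2324 on the plus and the minus strand, 2557 at 40 points and 28859 by difference alone; single positions lower numbered 447, 497, 506 and 12609. After thinning to 10 reads, 0 positions were called in either direction by the Fisher exact test, and 6734 higher and 2596 lower had an unadjusted p under 0.05.

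Of 47 named units called, 18 were called under every alternative that could be run. With each read counted once 26 of the 47 were not called, and after thinning 14 were not. On the minus strand 4 were not, on the plus strand 2 and with at least 20 reads 1. Units left with too few positions were not run. With at least 20 reads 33 named units, called or not, stayed the same, and with at least 10 positions 23 did. Some units share positions: the Oxct2a window and start, the Gm52698 window and start, and the Peg3 and Usp29 starts. The Gm52698 window was kept under each alternative run and its start, on the same positions, was not. Among the called units the Rhd start alone changed sign, at -4.091 points on the minus strand. Some starts that were not called, such as Atm and Idh2, also changed sign under an alternative. The cause of these changes was not tested beyond the fewer reads or positions each alternative uses. No paired analysis was possible because each group was 1 library with no replicate. Depth limits single positions most: the median of 27 to 30 reads stands for fewer molecules.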

Other observations

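Promoters of the starts called higher held fewer CpGs than promoters at large. Over the 300 bases of the RefSeq table, 197 such promoters (counting genes that share positions once) had a median of 11 CpGs and 57.7% GC, against 23 CpGs and 63.3% GC over all 10371 tested. Among promoters at 20 to 80% in the other libraries the medians were close, with 11 CpGs when called higher (98 promoters) and 12 when not called (225).

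Words of transcription factor motifs were counted on both strands of these promoters; a match describes letters and not a binding site. CACGTG, the E-box of MYC and USF factors, stood in 8.12% of promoters called higher and 10.3% of all tested. TGACGTCA, the cyclic AMP response element, stood in 2.03 and 3.03%, and CCGGAAG, an ETS word, in 12.7 and 17.0%. Each of these words holds a CpG, and CpG content differed between the sets as given above. Among promoters at 20 to 80%, CACGTG stood in 6.12% of those called higher and 9.33% of those not called. There TGACGTCA stood in 3.06 and 2.67% and CCGGAAG in 15.3 and 9.33%, the reverse direction for these 2 words. None of these shares was tested.

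Along the gene start, in bins of 100 bases over all tested starts, the mean difference was lowest in the bin that begins 200 bases before the start site (0.615 points) and highest in the bin that begins 1000 bases before it (1.52 points).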
